A study of Mus musculus with 3 samples.

Results

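Contractile vascular smooth muscle cells of the mouse patellar tendon were chosen by the detection of marker genes, as the barcodes (droplets holding a cell) with at least 3 of the 5 genes Myh11, Cnn1, Actg2, P2rx1 and Timp4 detected and fewer than 3 of the 5 genes Nrgn, Nrip2, Casq2, Pln and Rergl detected. There were 555 such cells among 6588 barcodes past the cell filters: 540 of 4964 in the library of 2-week-old mice, 15 of 609 in 20-week replicate 1 and 0 of 1015 in 20-week replicate 2. By the labels, every library came from wild-type mice. The cells were from patellar tendon digested with collagenase and were sorted by flow cytometry against cells of the blood lineage and of the endothelium. Sequences of added reporter genes were counted in these libraries, as given near the end. The labels do not give the number or sex of the animals in a library. Messenger RNA was counted from its 3′ end with unique molecular identifiers (UMIs), so a level is given as UMIs of the gene scaled to a fixed total of UMIs over the summed cells (CPM, counts per 1000000). Such levels compare a gene between cell groups. In a 3′ method they are not divided by transcript length.

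Vascular smooth muscle cells wrap arteries, arterioles and veins and set vessel width by shortening. Calcium entry activates myosin light chain kinase, which lets smooth muscle myosin pull on actin filaments, and myosin phosphatase reverses this. Pericytes are the mural cells of capillaries, and smooth muscle cells of large vessels also lay down the elastic fibres of the vessel wall. In a growing tendon these vessels run with the loose connective tissue around the collagen fascicles.

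The 3 libraries differed in more than age. The 2-week library held 35556626 UMIs, 20-week replicate 1 held 1886785 and replicate 2 held 5849867, with medians of 6570, 2848 and 5132 UMIs per kept barcode. Xist, the RNA of the inactive X chromosome, stood at 503 CPM in the non-mural cells of replicate 1 and at 0.0352 CPM in those of the 2-week library. Among the contractile cells it was detected in 11 of the 15 cells of replicate 1 and in 0 of the 540 cells at 2 weeks, whereas the Y-linked Ddx3y stood at 0 and 82.5 CPM. Age and the sex of the animals therefore cannot be told apart in the comparison of these 2 libraries. At most 1 barcode sequence was shared by any pair of libraries, and none of these was a contractile cell.

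Many smooth muscle genes carry a CArG box, the binding sequence of serum response factor, and 3 windows that hold it upstream of contractile genes are shown because Myl9 leads the profile below, Vcl is among the contractile genes that differed between the libraries, and Dmd, encoding dystrophin, belongs to the same list (230 CPM in 2-week members, 17.8 CPM in non-mural cells). They are from RefSeq on GRCm38.p6, 5′ to 3′ on the gene's strand, with the box in capitals. The box in Myl9 (chr2:156775273-156775342, plus strand) begins 161 bases before the RefSeq start, that in Vcl (chr14:20929148-20929210, plus strand) 227 bases before it and that in Dmd (chrX:82948742-82948811, plus strand) 98 bases before it. None of the 3 stretches overlaps an exon of GENCODE's annotation of this assembly.
Myl9: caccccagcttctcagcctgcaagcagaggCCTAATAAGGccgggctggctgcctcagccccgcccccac
Vcl: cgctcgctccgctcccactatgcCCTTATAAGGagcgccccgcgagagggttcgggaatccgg
Dmd: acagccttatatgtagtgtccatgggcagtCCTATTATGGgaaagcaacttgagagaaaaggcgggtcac
The box was searched as CC, then 6 bases of A or T, then GG, a pattern that is the same on both strands, in windows from 250 bases before to 50 bases after each start. It was in 6 of the 42 windows of the contractile apparatus list (14.3%, in Dmd, Ldb3, Myl6, Myl9 and Vcl; 34 of the 40 genes had a window) and in 535 of all 32851 windows (1.63%). Ldb3 has overlapping windows that hold the same box, so 1 box is counted in both. Overlapping windows were not merged in either count. The stretches around the boxes of Ldb3 and Myl6 overlap annotated exons of these genes and are not shown. Of the 15 windows of the leading genes named below, 1 held it, that of Myl9. The windows of Acta2, Cnn1, P2rx1 and Timp4 held no exact match, and Myh11, Actg2 and Tagln had no window. Near matches were not counted, for example ccctatatgg in the window of Acta2. A window without an exact match can therefore still hold a variant of the box.

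The number of rule genes detected separated a group of barcodes at 2 weeks. Of the barcodes not left out by the second gene set, 3947 had none of the 5 genes, 298 had 1, 60 had 2, 67 had 3, 128 had 4 and 345 had all 5, so that most members had every gene. In replicate 1 the numbers were 544, 40, 9, 5, 6 and 4. In replicate 2 they were 971, 42 and 2, with no barcode above 2 genes. Acta2 encodes smooth muscle alpha-actin and Tagln encodes transgelin, an actin-binding protein, and neither is a rule gene. At 2 weeks Acta2 stood at 12349 CPM in barcodes with 2 rule genes and 17744 CPM in those with 3, just outside and just inside the rule, and reached 32695 CPM in those with all 5. The 2 barcodes of replicate 2 with 2 rule genes held 4921 CPM of Acta2 and 4101 CPM of Tagln.

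**Figure D1:**
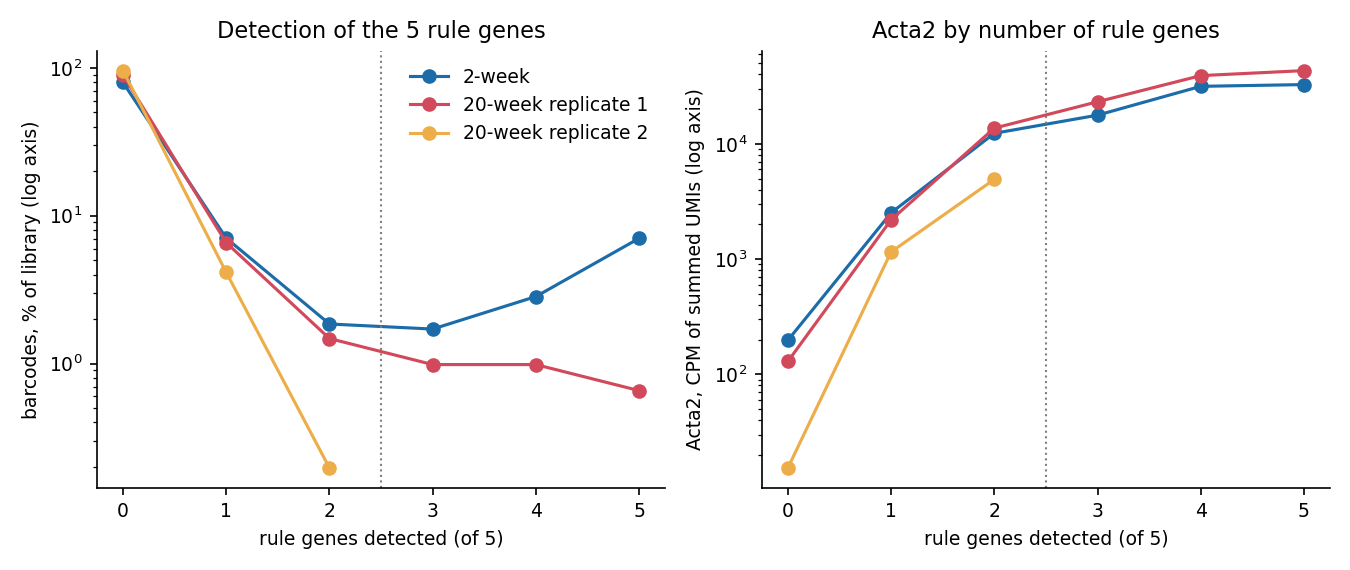
Left, the percent of each library's kept barcodes (log axis) by the number of the 5 rule genes detected; right, Acta2 in CPM of the summed UMIs (log axis) for barcodes not left out by the second gene set; the dotted line marks the rule. The 2-week curve turns up again at 4 and 5 genes, the replicate 2 curve ends at 2 genes, and Acta2 climbs with the number of rule genes in all 3 libraries.

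The contractile cells made up 10.9% of the 2-week barcodes (exact 95% binomial interval 10.0 to 11.8) and 2.46% of replicate 1 (1.38 to 4.03). They were 0 of 1015 barcodes in replicate 2, for which the same interval reaches 0.363% (0.296% by the limit of 3 counts). Depth moves with these shares: with the rule applied after every barcode was thinned to 1000 UMIs, the shares were 6.49%, 1.64% and 0%. The order of the 3 libraries stayed the same with at least 4 rule genes, without the second gene set and with stricter cell filters. Replicate 2 did hold mural cells, since 29 of its barcodes had both Kcnj8 and Abcc9, the pericyte rule. The non-mural class is all that no rule took, so it also holds barcodes with 1 or 2 rule genes and mural cells of low detection. These are 3 sorted and digested preparations, so fewer cells in the vessels and fewer cells recovered cannot be told apart, and no test of the share was run on 1 library against 2.

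The border set by the second gene set, toward the 119 arterial-type barcodes of the 2-week library with at least 3 of its genes, is described here by values the rule used, which support nothing. Of the 540 members, 136 had 0 of these genes, 351 had 1 and 53 had 2. Just outside, 35 further barcodes had at least 3 rule genes but also 3 or more of the second set. Actg2, the gamma-enteric smooth muscle actin, stood at 1510, 1325 and 833 CPM in members with 0, 1 and 2 of the second set's genes, and at 310, 295 and 81.5 CPM in the barcodes left out with 3, 4 and 5. Cnn1, encoding calponin, went from 656 CPM in members with 2 to 380 CPM in barcodes with 3. Timp4, an inhibitor of metalloproteinases, went the other way among the members, from 267 to 467 and 566 CPM. Nrip2 was the gene of the second set that the members also held, at 264 CPM at 2 weeks and 277 CPM in replicate 1. Nrgn and Casq2 were under 10 CPM at 2 weeks and had 0 UMIs in replicate 1. The members of replicate 1 summed to 43273 UMIs, too few to show a level of 10 CPM. Pln, encoding the calcium pump regulator phospholamban, stood at 13.6 CPM at 2 weeks and at 185 CPM in replicate 1, from 8 UMIs in the latter.

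The 5 rule genes and the 2 markers outside the rule had these levels in members, which describe the choice and support nothing. Myh11, the smooth muscle myosin heavy chain (chr16:14194535-14291372, GRCm38), stood at 3095 CPM at 2 weeks and 3697 CPM in replicate 1, against 28.2 CPM in the non-mural cells at 2 weeks. Cnn1 (chr9:22099216-22109630) stood at 746 and 693 CPM, against 1.41 CPM. Actg2 (chr6:83512905-83536265) stood at 1314 and 1040 CPM, against 47.2 CPM in pericytes at 2 weeks. P2rx1, an ATP-gated cation channel of smooth muscle (chr11:72999103-73015200), stood at 526 and 277 CPM, against 0.563 CPM in non-mural cells. Timp4 (chr6:115241892-115252205) stood at 435 and 1109 CPM, against 0.950 CPM. Acta2 (chr19:34241090-34255590) stood at 31218 and 36120 CPM, against 431 CPM, and Tagln (chr9:45929619-45936058) at 27246 and 36189 CPM, against 221 CPM. All 6 marker genes given with the label were thus high in members of both libraries.

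Single cells spread widely around these sums. Acta2 per cell ran from 1066 to 77376 CPM at 2 weeks with a median of 30121, and from 9695 to 57215 CPM with a median of 34473 in replicate 1, so the ranges overlapped throughout. Tagln had medians of 28482 and 32977 CPM per cell. With every cell thinned to 1000 UMIs, Acta2 was detected in 99.8% of the 2-week members and in 13.4% of that library's non-mural cells. Unthinned, these shares were 100.0% and 35.6%, at median depths of 8043.5 and 6348 UMIs. The non-mural class also holds barcodes with 1 or 2 rule genes, so its share is no measure of free RNA, which was not estimated. Actg2, used in the rule, was detected in 66.3% of thinned 2-week members, 4.20% of arterial-type cells, 2.63% of pericytes and 0.602% of non-mural cells (97.2%, 26.9%, 7.24% and 1.61% unthinned).

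Ranked by log2 fold over the non-mural cells on CPM + 10, averaged over the 2-week library and replicate 1, the 15 leading genes were Tagln, Actg2, Acta2, Myl9, Myh11, Cnn1, Tpm2, Timp4, P2rx1, Pcp4l1, Sorbs2, Csrp1, Tinagl1, Ppp1r14a and Gm13889. Of these, 9 are in the contractile apparatus list. Myl9, the regulatory light chain of smooth muscle myosin, stood at 8797 CPM at 2 weeks and 13796 CPM in replicate 1, against 180 and 165 CPM in non-mural cells of the same libraries. Tpm2, a tropomyosin, stood at 9671 and 14004 CPM, against 214 and 185 CPM. Ppp1r14a, the CPI-17 inhibitor of myosin phosphatase, stood at 1518 and 1779 CPM, against 39.3 and 38.8 CPM. Tinagl1, a secreted matrix protein, stood at 1651 and 809 CPM, against 23.9 and 24.5 CPM. Gm13889 stood at 1276 and 3790 CPM, against 40.7 and 88.4 CPM. These folds follow from choosing the cells by genes of the same profile and are a description with no test.

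**Figure D2:**
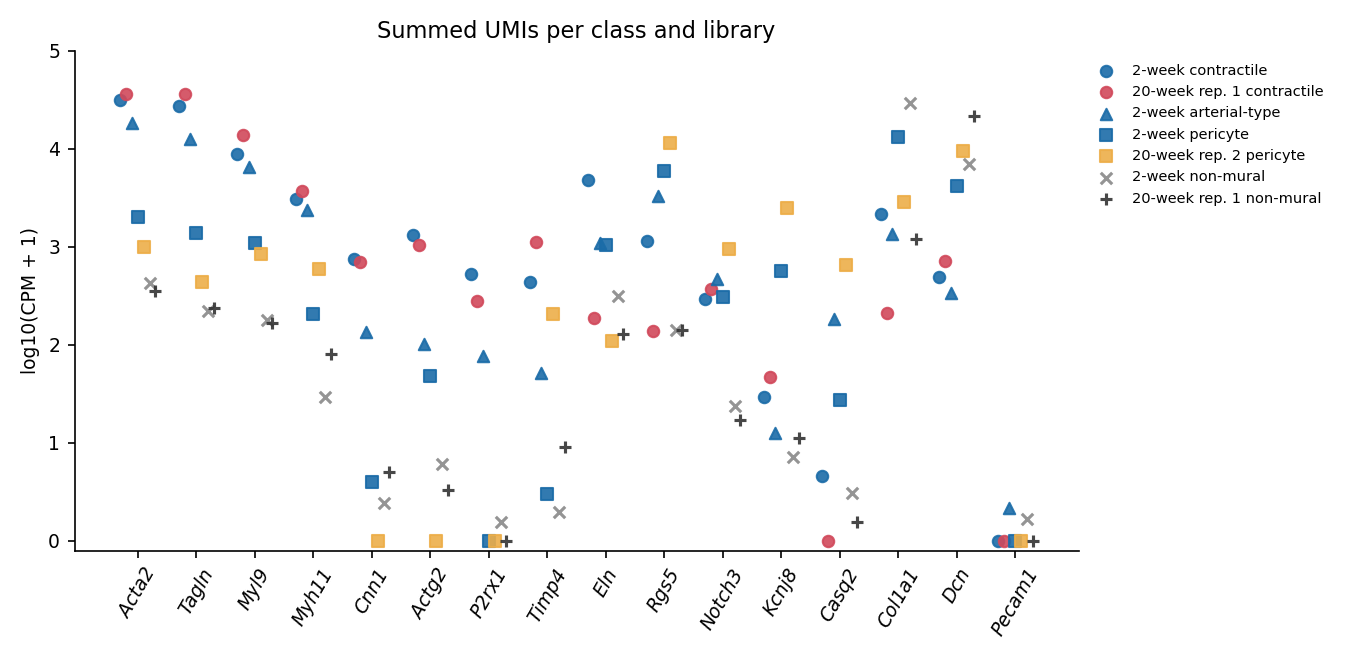
Levels as log10(CPM + 1) of the summed UMIs of each class and library for 16 genes; circles are contractile cells, triangles arterial-type cells, squares pericytes, and crosses and plus signs non-mural cells. Contractile cells of both ages lie together at the top for the actin and myosin genes, whereas Eln and Rgs5 lie lower in the 20-week circle.

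Among 3274 genes with at least 50 CPM in members or in non-mural cells at 2 weeks, 14.1% were higher in members by 2-fold or more, and 14.9% were lower by as much. Since the rule used this contrast, list counts beside these shares are a description. Of 38 contractile apparatus genes at that level, 35 were at least 2-fold higher in members and 0 lower. Their summed level was 117298 CPM in members, 73669 CPM in arterial-type cells, 16009 CPM in pericytes and 7815 CPM in non-mural cells. In replicate 1 it was 149447 CPM in members and 8721 CPM in non-mural cells. Outside the rule, Csrp1, a LIM protein of the actin cytoskeleton, stood at 2543 CPM in members and 77.7 CPM in non-mural cells at 2 weeks. Lmod1, a leiomodin that nucleates smooth muscle actin filaments, stood at 372 and 4.15 CPM. Mylk, the myosin light chain kinase, stood at 879 CPM in members and 1005 CPM in arterial-type cells, so it did not set the 2 classes apart by level.

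Of 7 vasoactive receptor genes at that level, 5 were at least 2-fold higher in members than in non-mural cells and 2 lower. Ramp1, the partner of the calcitonin receptor-like receptor in sensing CGRP, was the most abundant at 462 CPM, against 80.7 CPM. Ednra, the endothelin A receptor, stood at 119 CPM in members, 212 CPM in arterial-type cells, 138 CPM in pericytes and 16.1 CPM in non-mural cells. Tbxa2r, the thromboxane receptor, stood at 71.4 CPM in members and 26.6 CPM in arterial-type cells, and S1pr3, a sphingosine-1-phosphate receptor, at 70.1 and 150 CPM. Of 13 ion channel and calcium handling genes, 9 were higher. Kcnab1, a subunit of voltage-gated potassium channels, stood at 197 CPM in members, 257 CPM in arterial-type cells and 2.01 CPM in pericytes. Kcnmb1, the smooth muscle subunit of the large-conductance calcium-activated potassium channel, stood at 75.2, 30.1 and 1.00 CPM. The potassium channel subunits of pericytes were low, with Kcnj8 detected in 85 of the 540 members and Abcc9 in 158, and with levels of 52.7 CPM of Abcc9 in members and 502 CPM in pericytes. Since these 2 genes chose the pericytes, their levels there are a description.

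Of 15 cyclic nucleotide and RGS genes, 13 were higher. Gucy1a1, a subunit of the nitric oxide receptor guanylyl cyclase, stood at 442 CPM in members, 754 CPM in arterial-type cells and 30.4 CPM in non-mural cells. Rgs5, which shortens G protein signals, stood at 1134 CPM in members, 3334 CPM in arterial-type cells and 5897 CPM in pericytes. Of 14 smooth muscle transcription factor genes, 6 were higher. Myocd, the cardiac and smooth muscle coactivator of serum response factor, stood at 79.0 CPM in members, 70.5 CPM in arterial-type cells, 3.01 CPM in pericytes and 0.950 CPM in non-mural cells, and Mef2c stood at 322 CPM in members against 1206 CPM in arterial-type cells. Of 8 Notch genes, 5 were higher: Notch3, the Notch receptor of mural cells, stood at 292 CPM, and its target Hes1 at 566 CPM against 1177 CPM in arterial-type cells.

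Of 32 elastic fibre and secreted matrix genes at 50 CPM, 3 were at least 2-fold higher in members and 21 lower, with a median log2 ratio of -2.02, and Eln was among the 3. Eln, encoding tropoelastin (chr5:134702593-134747323), stood at 4752 CPM in 2-week members, 1080 CPM in arterial-type cells, 1048 CPM in pericytes and 312 CPM in non-mural cells. With cells thinned to 1000 UMIs it was detected in 95.2% of members, 44.5% of arterial-type cells, 41.4% of pericytes and 16.5% of non-mural cells (99.1%, 80.7%, 67.8% and 41.3% unthinned). Of 26 fibrillar collagen and collagen processing genes, 20 were at least 2-fold lower in members and 1 higher. That gene was Col8a1, a short-chain collagen of vessel walls, at 461 CPM in members, 5.78 CPM in arterial-type cells and 67.9 CPM in non-mural cells. Of 14 imprinted growth genes, 14 were lower, among them Igf2 at 158 CPM against 1373 CPM.

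Markers of other cell types ran in both directions. Of 8 pericyte markers at 50 CPM, 6 were at least 2-fold higher in members than in non-mural cells and 1 lower, with a summed level of 2641 against 928 CPM and of 10298 CPM in pericytes. The visceral smooth muscle markers summed to 1553 against 80.2 CPM, of which Actg2, a rule gene, made up 1314 CPM. Among the satellite cell markers, Des, which smooth muscle also expresses, stood at 92.1 CPM in members, and the whole list summed to 45.6 CPM in non-mural cells. All 15 tendon and stromal fibroblast markers were at least 2-fold lower in members, and their summed level was 5072 CPM in members against 65908 CPM in non-mural cells at 2 weeks, and 1826 against 37137 CPM in replicate 1. These UMIs were concentrated, since the 54 members richest in them at 2 weeks held 72.3% of them. A cell's stromal share had a median of 0.161% and ran up to 12.5%. Of the 12 endothelial markers, Pecam1, Cdh5, Kdr, Cldn5 and Emcn were at 0 in the 540 cells. The sum of the list was 185 CPM in members and 65.6 CPM in non-mural cells, and Esam, an adhesion molecule that the other mural cells also held, made up 158 CPM of the former. Of the 540 members, 14 (2.59%) had at least 2 of 8 G2/M genes, against 184 of 4153 non-mural cells (4.43%). In replicate 1, 0 of the 15 members and 0 of the 591 non-mural cells did.

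The comparison between ages rests on 2-week members with 4495409 UMIs and 15 members of replicate 1 with 43273 UMIs, since replicate 2 had none. It sets 1 library against 1, so there is no test, and the intervals cover counting error only. Ratios are replicate 1 over 2-week, scaled by trimmed mean of M values (TMM). In members this makes each ratio 1.22-fold lower than the ratio of the plain CPM printed here. The other barcodes were scaled by their own factors (1.06 at 2 weeks and 0.946 in replicate 1), which raise their ratios. Small differences between the ratio in members and that in other barcodes therefore depend on the scaling. A gene was counted as higher or lower where its ratio was at least 2-fold and its exact 95% counting interval left out 1. Of 623 genes with enough UMIs, 120 passed (19.3%), 27 of them higher at 20 weeks (4.33%) and 93 lower (14.9%). The minimum is on the mean of both libraries, so a gene can pass it through the library where it is high, and counts over such genes describe those genes and not whole lists. With plain CPM, an alternative added after seeing the data, 49 were higher and 56 lower, so the balance of directions depends on the scaling. Of 35 genes named here, counted as higher or lower and put through the alternatives, 15 kept the call under every alternative tried. Another 11 lost it under some alternative only by having too few UMIs, and 9 by their ratio or interval. Other named genes, such as Sorbs2, Tinagl1, Gm13889 and Prkar1a, were counted but not put through the alternatives. Depth, sex and handling of the 2 libraries move with age here, and their part in the ratios was not tested.

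Elastin differed most. Eln had 21361 UMIs in the 540 members at 2 weeks, with a median of 35 UMIs per cell and 535 cells detected, and 8 UMIs in the 15 members of replicate 1, where 5 cells had 1 or 2 UMIs. The cells of the 2 libraries overlapped only in the few 2-week cells near 0. The level was 4752 CPM at 2 weeks and 185 CPM (exact interval 79.8 to 364) in replicate 1, which gives a ratio of 0.0318 (0.0137 to 0.0626), or 31.5-fold lower. In all other barcodes of the same 2 libraries the ratio was 0.394 (0.343 to 0.449). With cells thinned to 1000 UMIs Eln was detected in 6.67% of the members of replicate 1 (95% interval 0.169 to 31.9, and 33.3% unthinned). This was against 9.14% of its non-mural cells. Being 1 of 15 cells, the share in members cannot be told apart from that in non-mural cells. On summed UMIs Eln stood at 185 CPM in these members and 127 CPM in these non-mural cells. The pericytes of replicate 2 had 109 CPM. Of 11 elastic fibre and secreted matrix genes with enough UMIs, 2 were higher (Mgp and the rule gene Timp4) and 3 lower (Eln, Fn1 and Ogn). Their median log2 ratio was 0.21. Over all 623 genes 4.33% were higher and 14.9% lower. The ratio of Eln is thus that of 1 gene and not of its list.

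Of 30 contractile apparatus genes with enough UMIs, 1 was higher and 4 lower, with a median log2 ratio of -0.11. Over all 623 genes 4.33% were higher and 14.9% lower, with a median of -0.22, so the list's counts lie near the background and are no result about contractile genes. The ratio was 0.945 (0.898 to 0.994) for Acta2, 1.08 (1.03 to 1.14) for Tagln, 0.976 (0.830 to 1.14) for Myh11 and 1.28 (1.18 to 1.39) for Myl9. Myh11, like Cnn1 and Actg2 of this list, is a rule gene. Its ratio describes cells chosen by its detection in libraries of unlike depth and supports nothing. Lower were Cald1, encoding the actin-binding caldesmon (1481 to 716 CPM, ratio 0.395), Vcl and Tln1, encoding vinculin and talin of cell-matrix junctions (508 to 185 CPM and 316 to 185 CPM), and Actn1, encoding an alpha-actinin (488 to 277 CPM). With plain CPM the log2 ratio of Actn1 was -0.81 and that of Tln1 -0.77, under 2-fold. Higher was Tns1, encoding tensin (305 to 855 CPM, ratio 2.29). P2rx1 and Timp4 were counted lower and higher, with ratios of 0.430 (0.222 to 0.753) and 2.08 (1.53 to 2.77), and both are rule genes. Neither call was stable: the log2 ratio of P2rx1 was -0.92 with plain CPM, -0.96 with at least 4 rule genes and -0.73 with the 2-week sum thinned to the smaller one. That of Timp4 was 0.69 with this thinning, 0.55 with the rule applied after thinning of the barcodes, 0.96 without likely doublets and 0.90 without the tenth of members richest in stromal markers.

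**Figure D3:**
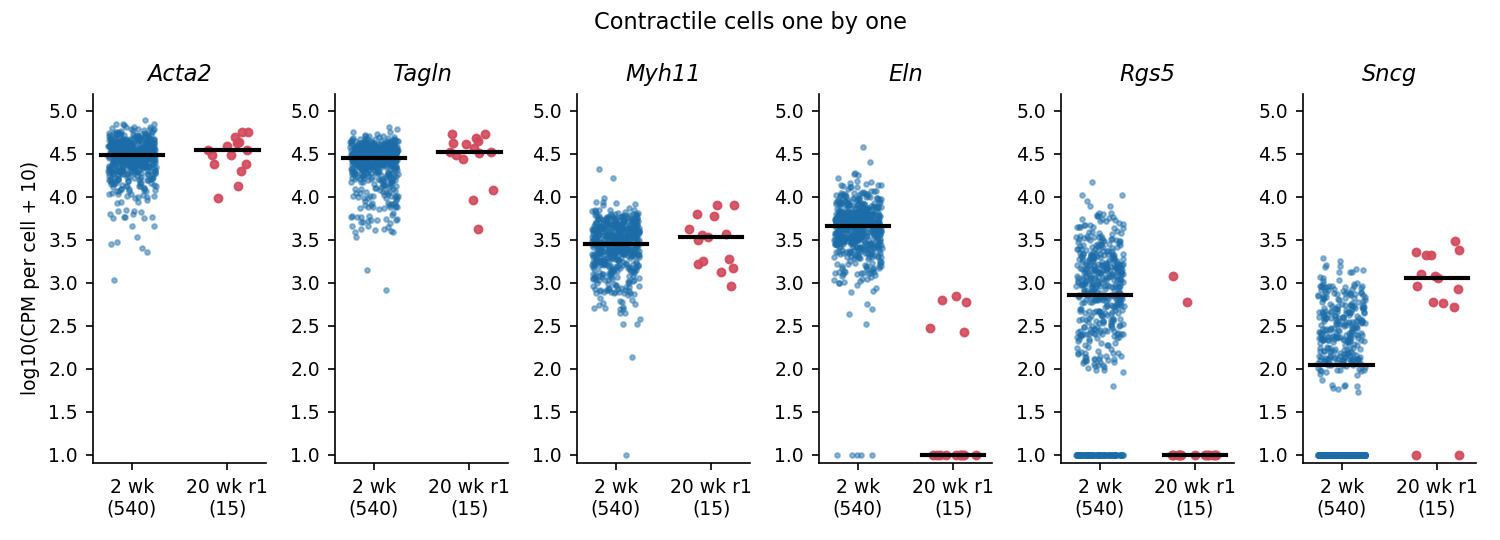
Each point is a contractile cell, at log10(CPM per cell + 10), for 540 cells of the 2-week library and 15 of 20-week replicate 1; bars are medians. Acta2, Tagln and the rule gene Myh11 overlap between the libraries, Eln and Rgs5 are at 0 in most replicate 1 cells (5 and 2 of 15 detected), and Sncg is higher there.

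Type I collagen was lower in members of replicate 1, as it was in the other cells. Of 28 fibrillar collagen and processing genes measured, 5 had enough UMIs, and all 5 were lower, with a median log2 ratio of -2.11. Over all 623 genes compared, 14.9% were lower. All but Col3a1 were under the minimum mean level (231 CPM) in replicate 1 and passed it only through the 2-week library. The count and median therefore describe these 5 genes and are no result about the list. Col1a1 stood at 2141 CPM at 2 weeks and 208 CPM in replicate 1, a ratio of 0.0793 (0.0363 to 0.151), and its ratio in the other barcodes was 0.0474. Per cell, Col1a1 had a median of 5 UMIs and a highest value of 2436 UMIs at 2 weeks. Its log2 ratio was -3.66, and it was -2.44 without the tenth of members richest in stromal markers and -2.21 without likely doublets. Col1a2, the other type I chain, moved likewise, with a log2 ratio of -3.38 and -2.00 without likely doublets. Col3a1 (2114 to 601 CPM), Serpinh1, the collagen chaperone (515 to 208 CPM), and Col8a1 (461 to 162 CPM) were the others. In the basement membrane list 2 of 5 were lower, Sparc at a ratio of 0.209 (0.251 in other barcodes) and Col4a1 at 0.349 (1.26 in other barcodes).

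In the lists of mural signalling few genes had enough UMIs. Of these, 1 of 5 cyclic nucleotide and RGS genes was higher (Pde4b) and 2 lower (Prkar1a and Rgs5). Of the attachment and growth factor, Notch and vasoactive receptor genes, 0 of 4, 0 of 2 and 0 of 1 were counted either way. Over all 623 genes 4.33% were higher and 14.9% lower. Counts over so few genes describe these genes and are no result about the lists. Pde4b went from 157 to 462 CPM, and its log2 ratio was under 2-fold with thinned sums (0.31), with the rule after thinning (0.38) and without the members richest in stromal markers (0.85). Rgs5 stood at 1134 CPM at 2 weeks, with UMIs in 437 of 540 cells, and at 139 CPM (50.9 to 302) in replicate 1, with 6 UMIs in 2 of 15 cells. The ratio was 0.0998 (0.0366 to 0.217), against 0.432 in the other barcodes. Rgs5 was not low in all mural cells at 20 weeks, since the 29 pericytes of replicate 2 held 11343 CPM. Gja4, encoding the gap junction protein connexin 37, had 2140 UMIs at 2 weeks and 2 in replicate 1, a ratio of 0.0793 with a counting interval from 0.00960 to 0.287. With stricter cell filters or at least 4 rule genes it had too few UMIs to be counted, at log2 ratios of -3.26 and -3.38. Of 4 pericyte markers with enough UMIs 3 were lower, beside 14.9% of all 623 genes. They were Rgs5, Mcam (414 to 185 CPM) and Ndufa4l2 (343 to 185 CPM). All 3 were under the minimum mean level (231 CPM) in replicate 1 and passed it only through the 2-week library. Ndufa4l2 was not counted with plain CPM (log2 ratio -0.89) or without the second gene set (-0.59), among other alternatives. Mcam had too few UMIs with stricter cell filters, at least 4 rule genes or the rule after thinning. Notch3 stood at 292 and 370 CPM (ratio 1.03, 0.586 to 1.69). The remaining genes with the largest ratios downward were Tmsb10, encoding an actin monomer-binding thymosin (864 to 69.3 CPM), Ost4 (429 to 69.3 CPM), Selenof (700 to 162 CPM), Hif1a, the hypoxia-inducible factor subunit (392 to 92.4 CPM), and Ctsl, a lysosomal protease (483 to 116 CPM). Of these 5, Ost4, Hif1a and Ctsl fell under the minimum of UMIs with stricter cell filters or with at least 4 rule genes, and Tmsb10 and Selenof were lower under every alternative.

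Genes higher in replicate 1 came with levels of the same genes in other cells. Sncg, encoding gamma-synuclein, stood at 202 CPM at 2 weeks and 1225 CPM (917 to 1602) in replicate 1, a ratio of 4.96 (3.69 to 6.55), and was detected in 292 of 540 and 13 of 15 cells. After thinning to 1000 UMIs it was detected in 16.3% and 60.0% of members and in 0.530% and 3.72% of non-mural cells, which unthinned were 54.1%, 86.7%, 1.37% and 4.57%. Apoe, the lipid carrier apolipoprotein E, stood at 65.4 and 485 CPM (ratio 6.06, 3.70 to 9.44), while non-mural cells held 491 and 665 CPM. Its level in members was thus below that of other cells at 2 weeks, and in replicate 1 the members' interval (300.4 to 742 CPM) took in the level of the other cells. Apoe fell under the minimum of UMIs with stricter cell filters, at least 4 rule genes, the rule after thinning and without the members richest in stromal markers, at log2 ratios from 2.13 to 2.97. Irf1, a transcription factor of the interferon response, stood at 178 and 901 CPM (ratio 4.14, 2.92 to 5.70), against 75.4 and 135 CPM in non-mural cells. Coq10b stood at 117 and 439 CPM (ratio 3.06; under the minimum with at least 4 rule genes and with the rule after thinning) and Emd, encoding the nuclear envelope protein emerin, at 143 and 462 CPM (ratio 2.64). The log2 ratio of Emd was 1.40 and turned to -2.50 with the rule applied after thinning to 1000 UMIs. In that setting Emd had too few UMIs to be counted, and its counting interval took in a ratio of 1.

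Of 9 redox enzyme genes with enough UMIs 3 were higher (Mt1, Mt2 and Gstm1) and 0 lower, beside 4.33% higher over all 623 genes. Mt2 and Gstm1 stood at 137 and 145 CPM at 2 weeks, under the minimum mean level (231 CPM), and passed it only through replicate 1. The count therefore describes these genes and not the list. Mt1 and Mt2, the metallothioneins, had ratios of 3.36 (2.94 to 3.82) and 4.12 (2.76 to 5.95) in members and of 6.73 and 9.73 in all other barcodes. Gstm1, a glutathione transferase, had 2.98 in members and 4.96 in others. Fth1, the ferritin heavy chain, had 3.84 (3.59 to 4.10) in members, from 4543 to 21353 CPM. In others Fth1 had 4.96, from 2355 to 10444 CPM, and by plain CPM the larger ratio was that of the members. Cxcl1, a chemokine, had a ratio of 2.60 in members and 13.6 in others, and its log2 ratio in members, 1.38, was 0.02 with at least 4 rule genes. In that setting Cxcl1 had too few UMIs to be counted. With the rule applied after thinning, the log2 ratio of Mt1 went from 1.75 to 0.58, which is under 2-fold, and that of Mt2 from 2.04 to 1.11 with too few UMIs to be counted. Gstm1 had too few with stricter cell filters and with at least 4 rule genes. Of 23 immediate early and heat shock genes, which can respond to tissue digestion, 0 were higher and 1 lower, with a median log2 ratio of -0.07. Of 26 oxidative phosphorylation genes 0 were higher and 5 lower, with a median of -0.59, against 14.9% lower and a median of -0.22 over all genes. Across 622 genes, the ratio in members was larger than in all other barcodes by at least 2-fold beyond counting error for 20 genes and smaller for 83. With plain CPM the balance turned to 56 larger and 27 smaller.

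**Figure D4:**
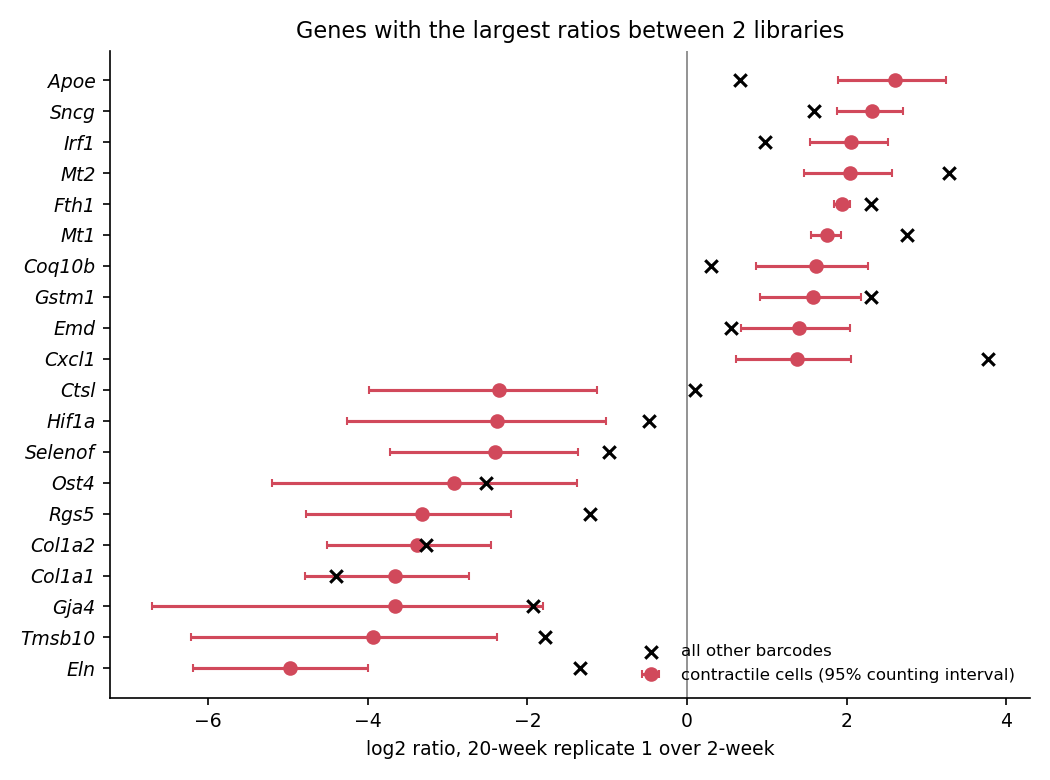
Log2 ratio of 20-week replicate 1 over 2-week, scaled by TMM, for the 10 genes with the largest ratio in each direction; points and bars are contractile cells with the 95% counting interval, crosses are all other barcodes. Eln, Rgs5 and Ctsl lie below the other cells, and Mt1, Mt2 and Cxcl1 lie nearer to 0 than the other cells.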

How the data were processed

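The deposited matrices hold UMI counts per gene and barcode, neither normalized nor pooled. The authors ran Cell Ranger 6.1.2 against mm10, per the submitters' processing notes and, for the program, per the file headers. Kept barcodes had 500 genes and 1000 UMIs or more, with mitochondrial UMIs not above 10%, and doublets were not removed. Leaving out likely doublets by a simulated score was an alternative. UMIs were summed per library and class, and arterial-type cells had at least 3 genes of the second set. Pericytes were barcodes outside both classes with both Kcnj8 and Abcc9, and non-mural cells were the rest. The planned edgeR quasi-likelihood and DESeq2 tests were not run because replicate 2 had 0 members. Ratios of sums used TMM factors (edgeR 4.0.16, R 4.3.3) and exact binomial counting intervals, for genes whose mean CPM gave 10 expected UMIs in the smaller sum, and the code was tested on simulated data. That counting rule, and naming the 10 largest ratios each way, were set after this was seen. Other named genes were rule genes, leading genes (at least 50 CPM, ranked on CPM + 10), up to 6 list genes counted as higher or lower and the 2 to 4 most abundant of a list. Others named in lists and in plots were chosen after their values were seen. Members and lists were chosen with earlier results of these data known.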

Additional observations from a re-analysis of the deposited data

Results flagged for a closer look

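Sequences of 2 added reporter genes were counted in contractile cells that the labels call wild type. EGFP had 26 UMIs in 11 of the 540 members at 2 weeks, against 1925 UMIs in 856 of 4153 non-mural cells. The tdTomato sequence had 75 UMIs in 66 members, against 926 UMIs in 668 non-mural cells. In replicate 1 the 15 members had 0 UMIs of both, and its 591 non-mural cells had 86 of EGFP and 890 of tdTomato. The source of these UMIs was not tested.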

How the results depend on the processing

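No paired analysis was possible because replicate numbers were given at 20 weeks only and replicate 2 had 0 members. Against 27 genes higher and 93 lower at 20 weeks, plain CPM gave 49 and 56, no filter on low counts 141 and 319, at least 4 rule genes 16 higher, and the rule after thinning 7 higher. Against 20 ratios larger and 83 smaller than in all other barcodes, plain CPM gave 56 and 27, no filter 316 and 203, at least 4 rule genes 10 larger, and the rule after thinning 10 and 51. The 2-week share was 9.53% with at least 4 rule genes and 6.49% with the rule after thinning. With the latter the log2 ratio of Emd turned to -2.50 and that of Timp4 was 0.55, and with at least 4 rule genes that of Cxcl1 was 0.02. Emd and Cxcl1 had too few UMIs in these settings to be counted. The counting interval of each of these ratios took in a ratio of 1. The cause of these changes was not tested. Without replicate 2 nothing changed, and without replicate 1 no 20-week member was left. DESeq2 and the comparison with other mural cells, of which replicate 1 had 3, were not run. With 43273 UMIs in the smaller sum, 623 of 32288 features could be compared.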
